A study of Mus musculus with 34 samples.

Results

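Collagens and laminins are the building proteins of basement membranes and connective tissue, and in brain they lie mainly around vessels and in the meninges. The genes described here were every row of the deposited expression table whose symbol names a collagen alpha chain or a laminin alpha, beta or gamma chain. The rule found 54 genes, 43 collagens and 11 laminins, among the 16389 genes of the table. Of these, 42 passed a filter on low values (at least 1 FPKM in at least 3 libraries, FPKM being fragments scaled for transcript length and library size) and were tested together with 14710 genes in all. By type the 54 were 11 fibrillar collagens, 8 basement membrane collagens, 6 collagen VI genes, 9 fibril-associated collagens, 4 transmembrane collagens, 5 other collagens and 11 laminins.

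Bulk RNA was sequenced from cortex, hippocampus and thalamus, the last dissected together with striatum, of 12 male C57BL/6 mice in 3 treatment groups. WT CON mice, given as vehicle-treated in the labels, received neither irradiation nor marrow nor inhibitor per the study's methods. GFP-BM CON mice were irradiated over the whole body with 1000 cGy at 4 months of age and received marrow from CAG-EGFP donors, whose cells carry green fluorescent protein under a ubiquitous promoter. Mice of the GFP-BM REPOP group were irradiated and transplanted likewise and were then given, 3.5 months later, the CSF1R inhibitor PLX3397 at 600 ppm in chow for 14 days, which depletes microglia, followed by 6 months of recovery. Tissue of both irradiated groups was taken about 10 months after irradiation, and the age of WT CON mice is not given in the sources used here. All mice were perfused, and the meninges and choroid plexus are not stated to have been removed. The 34 libraries were 3, 4 and 4 of cortex, 4, 4 and 4 of hippocampus, and 4, 3 and 4 of thalamus, naming the groups in the order above, with the 3 regions of a mouse being separate libraries.

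In background terms, type IV collagen and laminin are the 2 networks of every basement membrane. The type IV network of vessels is built from COL4A1 and COL4A2 chains, which are made by endothelial and mural cells and astrocytes, while a laminin is a trimer of an alpha, a beta and a gamma chain. Lama4 and Lama5 mark the endothelial membrane, Lama2 the parenchymal membrane laid down by astrocytes, and Lama1 the meningeal membrane. Fibrillar collagens I and III and the microfibril-forming collagen VI are made by fibroblasts of the meninges and of larger vessels, and several minor collagens are also made by neurons. In bulk tissue, fewer cells of a type and less RNA per cell cannot be told apart.

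Between 17085018 and 26010509 reads were assigned to genes per library. Some hippocampus libraries stood apart. In 3 of them, WT CON replicate 2 and GFP-BM REPOP replicates 1 and 4, the mean log2 level of 10 hippocampal neuron markers was 0.58, 0.89 and 1.17, against 2.54 to 3.71 in the other 9 and 0.69 to 2.12 in cortex. In 4 others, WT CON replicate 1 and GFP-BM CON replicates 2, 3 and 4, that of 10 choroid plexus markers was 5.07, 3.14, 4.88 and 5.26, against -0.46 to 2.46 in the other 8, with Ttr at 6324, 1086, 4794 and 6196 FPKM. The mean log2 level of the 12 endothelial markers ran from 2.27 to 2.95 over all libraries. Libraries also differed in how far GC-rich genes stood above GC-poor ones. That gap, on the log2 scale and between the medians of the 1388 most GC-rich and 1388 most GC-poor genes, was 0.41 to 1.24 in cortex, 0.71 to 3.39 in hippocampus and 0.45 to 3.65 in thalamus. It was widest in WT CON, at 1.75 to 3.39 against 0.71 to 2.08 in GFP-BM CON hippocampus and at 1.09 to 3.65 against 0.45 to 0.83 in GFP-BM CON thalamus. The members' GC content had a median of 55.9%, against 50.1% over all genes tested. For both sets of hippocampus libraries, the region calls they changed are named below, and the main treatment differences of hippocampus are given also without them.

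Promoters are shown for 5 members that carry the results below: the type IV pair that led the vascular genes, the collagen VI chains Col6a1, which led cortex, and Col6a2, and collagens I and III. Each window runs from 250 bases before to 50 bases after the start in RefSeq (GRCm38.p6), and capitals mark 3 kinds of short motif on either strand. The first is the GC box, GGGCGG. The second is the CCAAT box, spelled as its name. The third is the TATA box, searched as TATAAA.
Col4a2, plus strand, chr8:11312555-11312854: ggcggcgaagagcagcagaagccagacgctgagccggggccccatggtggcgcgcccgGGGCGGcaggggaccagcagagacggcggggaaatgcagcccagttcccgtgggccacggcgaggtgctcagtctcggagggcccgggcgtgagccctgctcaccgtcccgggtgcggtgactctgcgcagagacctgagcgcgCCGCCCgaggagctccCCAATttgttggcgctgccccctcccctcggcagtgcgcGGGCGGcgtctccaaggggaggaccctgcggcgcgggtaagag
Col6a1, minus strand, chr10:76725995-76726294: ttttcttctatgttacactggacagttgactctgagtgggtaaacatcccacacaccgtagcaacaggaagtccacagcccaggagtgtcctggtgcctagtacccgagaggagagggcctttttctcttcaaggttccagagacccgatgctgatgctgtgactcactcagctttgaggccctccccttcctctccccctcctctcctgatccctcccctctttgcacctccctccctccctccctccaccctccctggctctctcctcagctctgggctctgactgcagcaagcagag
Col6a2, minus strand, chr10:76623581-76623880: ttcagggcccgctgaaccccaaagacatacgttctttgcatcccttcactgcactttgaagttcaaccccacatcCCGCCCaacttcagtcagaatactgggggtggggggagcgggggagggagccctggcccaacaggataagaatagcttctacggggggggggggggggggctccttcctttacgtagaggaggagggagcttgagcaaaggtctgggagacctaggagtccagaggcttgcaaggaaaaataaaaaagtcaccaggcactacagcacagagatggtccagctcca
Col1a2, plus strand, chr6:4505368-4505667: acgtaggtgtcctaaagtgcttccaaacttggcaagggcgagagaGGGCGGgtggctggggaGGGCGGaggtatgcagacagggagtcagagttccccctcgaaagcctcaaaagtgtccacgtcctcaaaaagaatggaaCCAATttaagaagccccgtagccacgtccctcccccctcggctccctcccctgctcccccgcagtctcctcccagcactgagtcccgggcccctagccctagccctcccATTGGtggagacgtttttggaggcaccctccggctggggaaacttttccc
Col3a1, plus strand, chr1:45311288-45311587: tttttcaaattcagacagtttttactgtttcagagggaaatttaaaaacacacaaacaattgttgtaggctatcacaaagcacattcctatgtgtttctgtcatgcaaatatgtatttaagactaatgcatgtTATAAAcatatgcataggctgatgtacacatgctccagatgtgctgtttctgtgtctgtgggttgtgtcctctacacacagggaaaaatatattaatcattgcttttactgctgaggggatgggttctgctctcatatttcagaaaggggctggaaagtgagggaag

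The Col4a2 window also holds the start of Col4a1, which runs the other way from base 11312826 of chromosome 8. The 2 gene bodies share 22 bases at their starts, so both type IV genes use this stretch of sequence. It holds 3 GC boxes and 1 CCAAT box and is 73.7% GC, while the Col3a1 window, at 37.7% GC, holds 1 TATA box. Of 43 windows, for 39 of the 54 members, 26 (60.5%) hold a GC box, against 35.7% of all 32851 windows of this length. A CCAAT box was in 14 (32.6%), against 37.4%, and a TATA box in 4 (9.30%), against 13.6%. These matches describe letters only.

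Per transcript length, the type IV pair and Col6a1 were among the leading members in every region. Col4a2 had a mean of 12.3 FPKM ± 1.31 (SD, n = 11) in cortex, 13.5 ± 2.87 (SD, n = 12) in hippocampus and 12.3 ± 1.38 (SD, n = 11) in thalamus. Col4a1 had 9.02 ± 0.658, 10.3 ± 2.03 and 8.37 ± 1.01 FPKM in the same order. Their ratio held within narrow limits, from 1.15 to 1.58 with a median of 1.37 over 34 libraries. The other type IV chains were low: Col4a5 lay between 0.400 and 1.49 FPKM in hippocampus, while Col4a3, Col4a4 and Col4a6 did not pass the filter.

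Col6a1 and Col6a2 encode chains of the collagen VI trimer that joins basement membranes to the surrounding matrix, and they varied much more. Col6a1 led the members in cortex, with a mean of 18.6 FPKM ± 5.28 (SD, n = 11), and its libraries in hippocampus ran from 2.55 through a median of 7.38 to 35.6 FPKM. Its highest libraries there were WT CON replicates 2 and 3 and GFP-BM REPOP replicate 4. Their mean log2 level of 10 striatum neuron markers was 5.49, 5.49 and 6.97. In the lowest, GFP-BM REPOP replicate 3 and WT CON replicate 4, that level was 2.49 and 2.10. This order did not hold throughout. For Col6a1, GFP-BM REPOP replicate 1, with a marker level of 2.66, stood above WT CON replicate 1, at 4.76. Likewise GFP-BM CON replicate 3, at 2.81, stood above GFP-BM REPOP replicate 2, at 3.57. GFP-BM REPOP replicate 4, with the highest marker level, had 19.3 FPKM of Col6a1, below WT CON replicates 2 and 3. In thalamus, WT CON replicate 3 had a marker level of 6.13 and 7.49 FPKM of Col6a1. The part of these markers in the spread was not tested. The ratio of Col6a1 to Col6a2 ran from 1.25 to 5.26 over 34 libraries, so the pair did not keep the fixed proportion of the type IV pair. Col6a3, which encodes the third chain of the trimer, was far lower, with means of 0.426, 0.944 and 0.907 FPKM in cortex, hippocampus and thalamus.

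Among laminins, the beta and gamma chains of the vascular membrane stood above the alpha chains. Lamb2 had means of 5.18, 7.94 and 7.72 FPKM in cortex, hippocampus and thalamus, Lamc1 had 5.27, 6.51 and 6.13, and Lamb1 had 3.83, 7.63 and 5.04. Lamc1, the gamma chain shared by most laminins, was also the steadiest of these within cortex, at 5.27 FPKM ± 0.187 (SD, n = 11). The alpha chains were at 1.99, 3.37 and 2.46 FPKM for Lama5, at 1.71, 1.18 and 1.11 for Lama4, at 1.55, 1.49 and 1.94 for Lama2, and at 0.379, 0.528 and 0.837 for Lama1.

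The fibroblast collagens were present at low levels in all 34 libraries. Col1a2 had means of 1.65, 2.99 and 3.22 FPKM in cortex, hippocampus and thalamus, Col1a1 had 1.20, 2.32 and 2.28, and Col3a1 had 0.334, 0.650 and 0.859. Their spread was wide in hippocampus, where Col1a1 was at 5.01 and 4.39 FPKM in WT CON replicates 1 and 2 and at 1.14 and 1.38 in replicates 3 and 4. The mean log2 level of the 12 meningeal and perivascular fibroblast markers in those libraries was 2.86 and 2.77 against 1.01 and 1.21. The part of meninges carried into a sample in these differences was not tested.

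**Figure D1:**
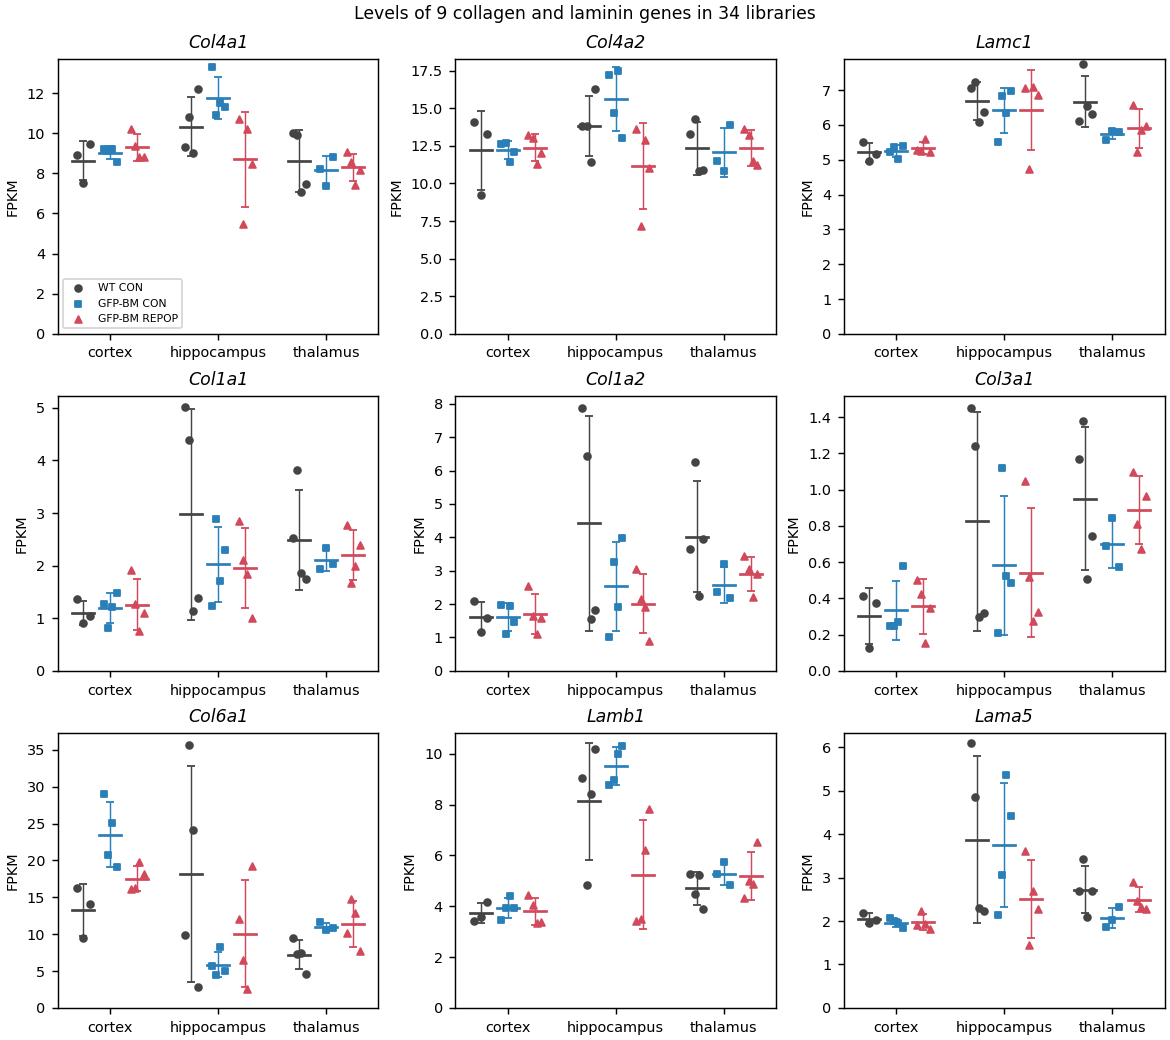
FPKM (linear axes from 0) of 9 members by region, with 1 point per library, coloured by treatment group, and the mean and SD of each group as bars. Col4a1, Col4a2 and Lamc1 sit in a narrow band in cortex and thalamus, while Col6a1, Col1a1, Col1a2 and Col3a1 spread widely in hippocampus, where Col6a1 runs from 2.55 to 35.6 FPKM.

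Several other collagens stood among the leading members. Col25a1, a transmembrane collagen of neurons, led thalamus with a mean of 13.0 FPKM ± 3.90 (SD, n = 11), against 7.68 in cortex and 7.44 in hippocampus. Col16a1 followed at 8.50 FPKM in thalamus, with 5.79 in cortex and 4.51 in hippocampus. Col9a3 had the highest mean of any member in hippocampus, 14.4 FPKM ± 15.3 (SD, n = 12), but that mean rested on 3 libraries between 37.0 and 41.4 FPKM, with the other 9 between 3.78 and 11.4. Col11a2 had means of 5.86, 7.94 and 7.03 FPKM in cortex, hippocampus and thalamus.

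The first comparison asked how the matrix genes differed between regions, with differences averaged over the 3 treatment groups and the mouse kept as a block. Col5a1, Col6a1, Col6a2, Col12a1, Col19a1, Col24a1 and Lama4 were higher in cortex than in both deeper regions. Col1a1, Col3a1, Col6a3, Col18a1, Lamb1, Lamb2, Lamc1 and Lamc3 were lower in cortex than in both. Against hippocampus, 23 of 42 members differed (limma, adjusted p under 0.05), near the share of all genes tested (57.3%). Of them 11 were higher in cortex (30.0% of all genes) and 12 in hippocampus (27.3%), and the members' median log2 difference was -0.07, against -0.02 for all genes. Against thalamus 28 of 42 differed (43.3% of all genes), 10 higher in cortex (23.5%) and 18 higher in thalamus (19.8%), with a median of -0.34, against 0.04 for all genes. Between hippocampus and thalamus 15 differed (50.6%), 3 higher in hippocampus (24.9%) and 12 in thalamus (25.7%), with a median of -0.17 against 0.01.

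Of 5 tested basement membrane collagens, none was higher in cortex than in either other region. Col4a2 differed between no pair of regions, with log2 differences of -0.12 (95% interval -0.31 to 0.08) for cortex over hippocampus and 0.00 (-0.20 to 0.20) for cortex over thalamus. Col4a1 was higher in hippocampus than in thalamus by 0.27 ± 0.09 (SE; adjusted p = 0.0135, limma), a call that was lost without the 3 libraries low in hippocampal markers, at 0.20 (adjusted p = 0.0745, limma).

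Col18a1 and Col15a1, which encode the core proteins of proteoglycans of vascular and meningeal basement membranes, did vary. Col18a1 was at 0.819 to 1.29 FPKM with a median of 1.00 in cortex and at 1.52 to 5.91 with a median of 2.55 in thalamus. The libraries of these regions did not overlap, and the log2 difference was -1.35 ± 0.24 (SE; adjusted p = 4.42e-05, limma). Col15a1 was highest in thalamus, by 0.53 on the log2 scale over cortex and by 0.51 over hippocampus (adjusted p = 0.00887 and 0.00828, limma). Col4a5 was also highest in thalamus, with -0.59 ± 0.13 (SE) for cortex over thalamus (adjusted p = 0.000768, limma).

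Laminins split by chain. Of 10 tested, 7 differed between cortex and hippocampus (57.3% of all genes), 2 higher and 5 lower in cortex, and 8 between cortex and thalamus (43.3%), 3 higher and 5 lower. Lamb1 was at 3.33 to 4.45 FPKM with a median of 3.94 in cortex, at 3.43 to 10.3 with a median of 8.59 in hippocampus and at 3.91 to 6.53 in thalamus. All but 2 hippocampus libraries, GFP-BM REPOP replicates 1 and 2, lay above every cortex library. The log2 difference was -0.90 ± 0.13 (SE) for cortex over hippocampus (adjusted p = 1.99e-06, limma), -0.39 ± 0.13 (SE) for cortex over thalamus (adjusted p = 0.0159) and 0.51 ± 0.13 (SE) for hippocampus over thalamus (adjusted p = 0.00162).

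Lamb2, Lamc1 and Lamc3 were lower in cortex than in both other regions. The differences from hippocampus were -0.56, -0.29 and -0.48 on the log2 scale, and those from thalamus were -0.51, -0.20 and -0.65. Lamb2 was highest in WT CON hippocampus replicate 1, at 12.7 FPKM, and WT CON thalamus replicate 2, at 14.1 FPKM, which are also the libraries with the widest GC gap of their regions (3.39 and 3.65). Its part in the difference was not tested. Of these 3 genes, Lamc1 alone kept its call against hippocampus without the libraries high in choroid plexus markers, and Lamc3 lost it also without those low in hippocampal markers, at -0.36 (adjusted p = 0.0899, limma).

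The alpha chains went separate ways. Lama4 was higher in cortex, by 0.53 ± 0.14 (SE) over hippocampus and 0.55 ± 0.14 (SE) over thalamus (adjusted p = 0.00224 and 0.00321, limma). Lama5 was lower in cortex than in hippocampus, by -0.61 ± 0.16 (SE; adjusted p = 0.00253, limma), and did not pass against thalamus, at -0.25 (95% interval -0.60 to 0.09). Lama1 ran from 0.256 to 0.447 FPKM in cortex and from 0.557 to 1.11 FPKM in thalamus, without overlap, with a log2 difference of -0.94 ± 0.15 (SE; adjusted p = 1.3e-05, limma). Lama2 passed only between hippocampus and thalamus, where it was lower in hippocampus by 0.39 ± 0.13 (SE) on the log2 scale (adjusted p = 0.0120, limma).

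Among the collagens known from fibroblasts, Col6a1 and Col6a2 lay on the cortex side and Col6a3, Col1a1 and Col3a1 on the other, while Col6a4 was called in no comparison. Col6a1 and Col6a2 were higher in cortex than in hippocampus by 1.06 ± 0.31 (SE) and 1.02 ± 0.21 (SE) on the log2 scale (adjusted p = 0.00465 and 0.000217, limma), and higher than in thalamus by 0.87 and 0.78. Within treatment groups the Col6a1 difference from hippocampus was 0.05 in WT CON, 2.01 in GFP-BM CON and 1.13 in GFP-BM REPOP. In WT CON the hippocampus libraries held 9.95, 35.6, 24.1 and 2.85 FPKM, a range that enclosed the 3 cortex libraries at 16.3, 9.47 and 14.1. The striatum marker level of these hippocampus libraries was 4.76, 5.49, 5.49 and 2.10. It was 2.81 to 3.07 in GFP-BM CON hippocampus and 2.49 to 6.97 in GFP-BM REPOP hippocampus. The part of striatum markers in the Col6a1 differences was not tested.

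Col6a3 was lower in cortex, by -0.82 ± 0.22 (SE) against hippocampus and -0.94 ± 0.23 (SE) against thalamus (adjusted p = 0.00272 and 0.00137, limma). Col1a1 differed in the same direction by -0.79 and -0.89 (adjusted p = 0.00479 and 0.00319) and Col3a1 by -0.66 and -1.17 (adjusted p = 0.0431 and 0.00162). Col1a2 passed against thalamus alone, at -0.88 (adjusted p = 0.0108), with -0.59 against hippocampus (adjusted p = 0.0624, limma). Between cortex and thalamus, 7 of the 12 fibroblast markers were lower in cortex (19.8% of all genes) and 0 higher (23.5%). Their median log2 difference was -0.75. Between cortex and hippocampus, Igf2 (-0.97), Lum (-0.75) and Mgp (-0.57) were lower in cortex (27.3% of all genes). Ogn (1.00) was higher in cortex (30.0% of all genes), and the other fibroblast markers were not called. The part of these markers in the collagen differences was not tested.

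The widest differences between cortex and hippocampus were those of minor fibrillar and fibril-associated collagens. Col19a1 was at 1.95 to 5.58 FPKM with a median of 4.62 in cortex, at 0.139 to 3.71 with a median of 0.773 in hippocampus and at 0.219 to 2.56 with a median of 1.41 in thalamus. Cortex stood above hippocampus by 2.38 ± 0.25 (SE; adjusted p = 3.27e-08, limma) and above thalamus by 1.72 ± 0.25 (SE; adjusted p = 3.25e-06) on the log2 scale. Col24a1 was higher in cortex by 2.07 and 1.29 and Col5a1 by 1.25 and 1.66 in the same order, and for Col5a1 the cortex and thalamus libraries did not overlap. Col11a1, which nucleates thin fibrils, was lowest in hippocampus, by 1.52 ± 0.25 (SE) below cortex and 1.63 ± 0.25 (SE) below thalamus (adjusted p = 1.48e-05 and 7e-06, limma). Col16a1 and Col26a1 were also lowest in hippocampus.

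On the thalamus side, Col25a1 stood above cortex by 0.68 and above hippocampus by 0.83 on the log2 scale (adjusted p = 0.0105 and 0.00145, limma). Col9a2, a chain of the fibril-associated collagen IX, stood above both by 0.95 and 0.86, and its cortex and thalamus libraries did not overlap. Col27a1 and Col5a3 shared this order, with Col27a1 above cortex by 0.55 and above hippocampus by 0.62. Col20a1 was lowest in thalamus, and 6 tested members, Col4a2, Col5a2, Col6a4, Col8a1, Col13a1 and Col23a1, passed in none of the 3 comparisons.

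**Figure D2:**
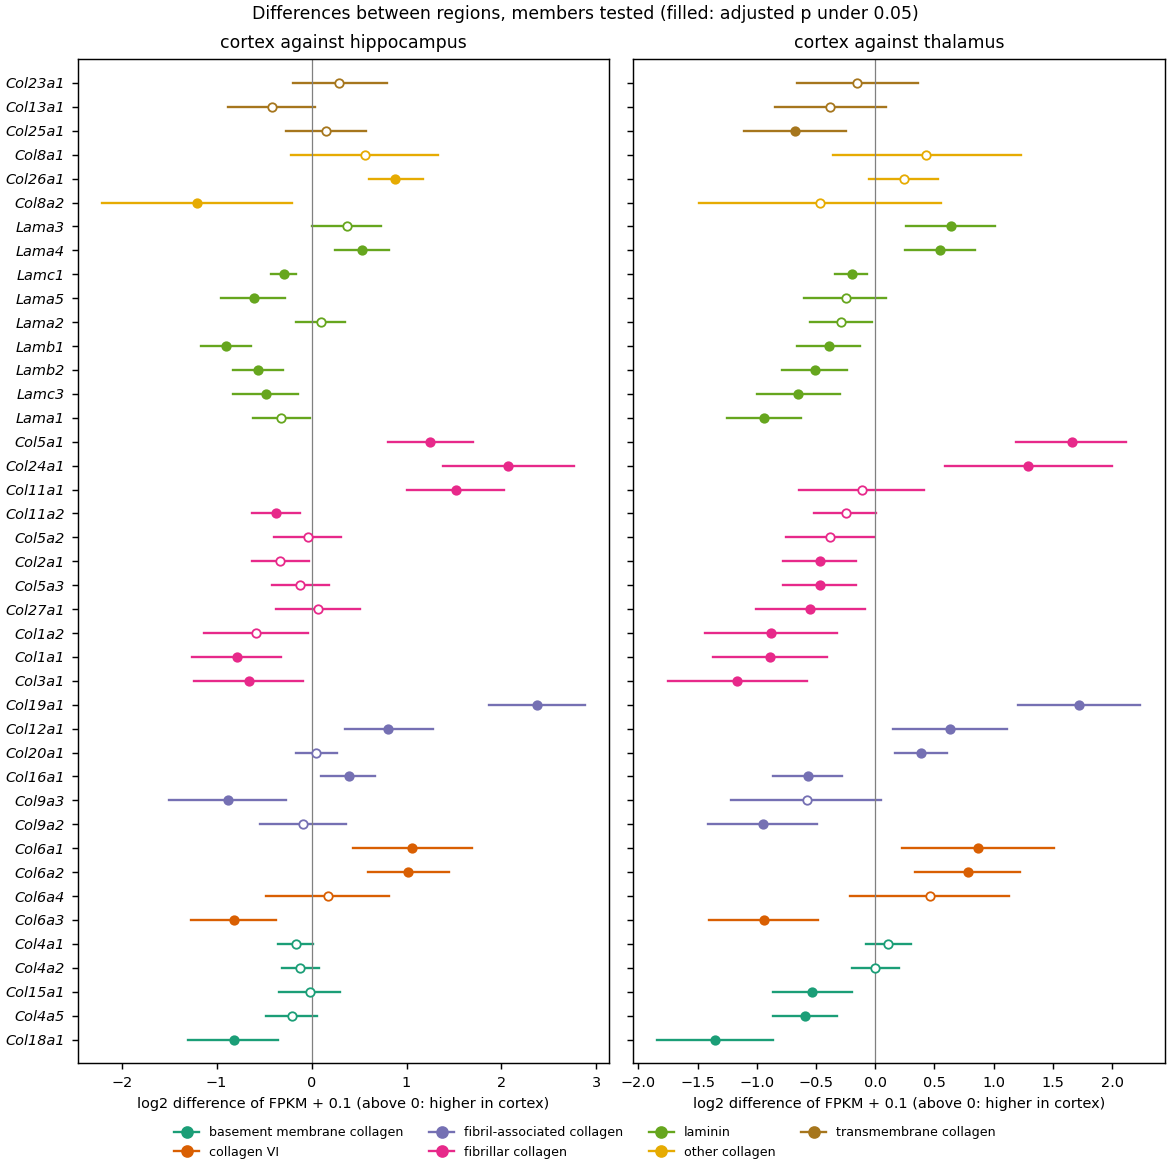
Log2 differences of FPKM + 0.1 between cortex and hippocampus (left) and between cortex and thalamus (right) for members tested, with 95% intervals, coloured by type and filled where the adjusted p was under 0.05. Col19a1, Col24a1 and Col5a1 lie on the cortex side in both panels, and Col18a1, Col3a1, Col1a1 and Lamb1 on the other side.

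The region calls rest on the mean over the 3 treatment groups, so a shared sign within these groups is no independent support. It also takes in differences near 0, such as 0.05 for Col6a1 in WT CON. The sign was shared by all 3 treatment groups for 22 of the 23 members called between cortex and hippocampus, the exception being Col9a3, for all 28 between cortex and thalamus, and for 12 of 15 between hippocampus and thalamus, the exceptions being Col20a1, Col4a5 and Lamb1. Lamb1 differed between hippocampus and thalamus by 0.73 in WT CON, 0.84 in GFP-BM CON and -0.06 in GFP-BM REPOP.

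Some members that differed between cortex and hippocampus were highest in hippocampus libraries high in choroid plexus markers. Col9a3 was at 41.4, 5.60, 8.68 and 3.78 FPKM in WT CON hippocampus, at 5.38, 11.4, 39.7 and 37.0 in GFP-BM CON and at 3.82, 4.88, 5.62 and 4.92 in GFP-BM REPOP. Col8a2, a network-forming short-chain collagen, was at 14.1, 1.67, 2.24 and 0.695 FPKM, at 0.124, 2.43, 6.13 and 12.5, and at 0.740, 1.90, 0.590 and 1.21 in the same order. Both were highest in WT CON replicate 1 and GFP-BM CON replicates 3 and 4, the libraries with the highest choroid plexus levels (5.07, 4.88 and 5.26). The fibroblast marker level of these libraries was 2.86, 1.65 and 2.29, against 0.51 to 2.77 in the other hippocampus libraries. The part of either marker list in these differences, and in the calls lost below, was not tested.

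Without the 4 libraries high in choroid plexus markers, 14 members differed between cortex and hippocampus (44.9% of all genes), 12 higher in cortex (25.7%) and 2 lower (19.1%). Of the 12 members lower in cortex with all libraries, 10 lost their call. Col8a2 turned from -1.21 to 0.23, and Col9a3 went from -0.88 to -0.09. The calls of Col18a1 (-0.40), Col1a1 (-0.47), Col3a1 (-0.22), Col6a3 (-0.55), Col11a2 (-0.24), Lama5 (-0.29), Lamb2 (-0.35) and Lamc3 (-0.25) were also lost. Lamb1 stayed lower in cortex, at -0.83 (adjusted p = 0.000299, limma), as did Lamc1, at -0.21 (adjusted p = 0.0353), and the members higher in cortex kept their sizes, with Col19a1 at 2.27, Col5a1 at 1.29 and Col6a1 at 1.02. Between hippocampus and thalamus, 21 members then differed (45.8% of all genes), 3 higher (21.5%) and 18 lower (24.3%) in hippocampus. Col19a1 lost its call, at -0.55 (adjusted p = 0.102, limma), and Col1a2, Col3a1, Col5a2, Col8a1, Col9a3, Col12a1 and Col18a1 gained one, all lower in hippocampus.

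Without the 3 libraries low in hippocampal markers, 23 members differed between cortex and hippocampus (59.8% of all genes), 13 higher (31.1%) and 10 lower (28.7%) in cortex, and 20 between hippocampus and thalamus (52.3%), 2 higher (25.6%) and 18 lower (26.6%) in hippocampus. Col6a1 then stood 1.54 above hippocampus on the log2 scale and Lamb1 at -0.95, while Col3a1, at -0.48, lost its call (adjusted p = 0.155, limma), as did Lamc3. Lama3 and Col23a1 gained one. Against thalamus Col4a1 lost its call, and Col3a1, Col5a2, Col6a1, Col6a2, Col23a1 and Col24a1 gained one.

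**Figure D3:**
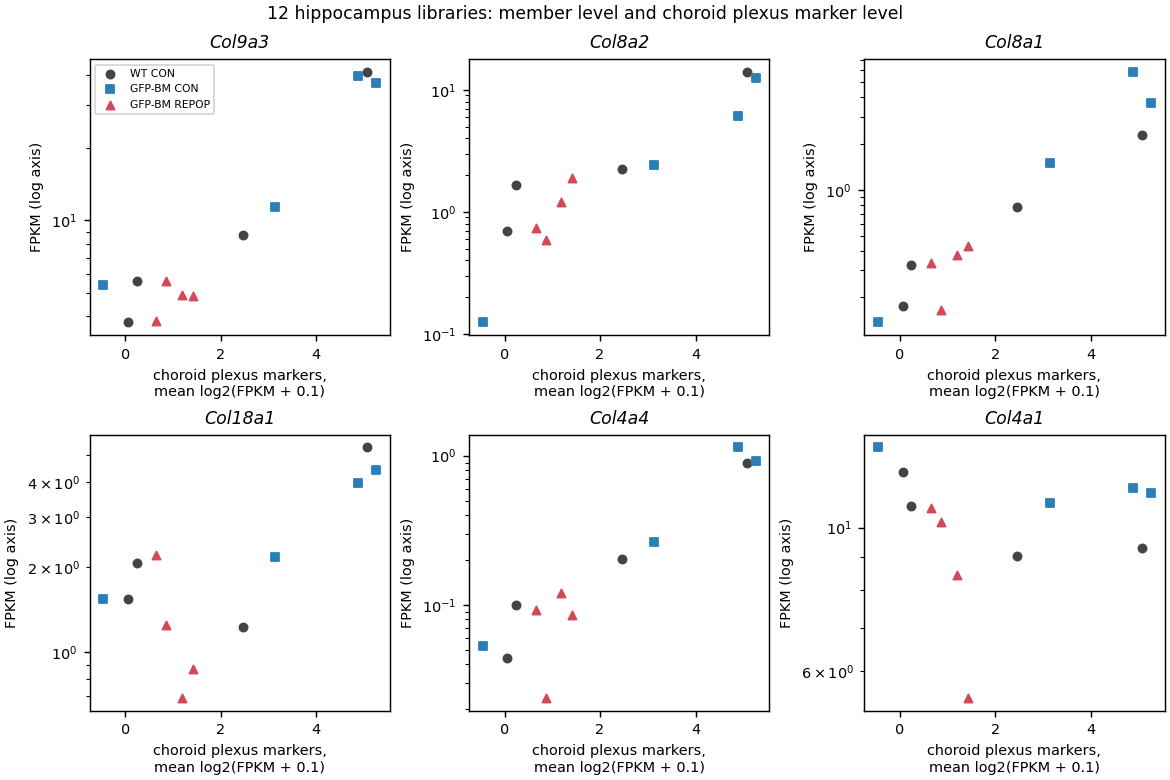
FPKM (log axes) of 6 members in the 12 hippocampus libraries against the mean log2(FPKM + 0.1) of 10 choroid plexus markers, 1 point per library, coloured by treatment group. Col9a3, Col8a2, Col8a1, Col18a1 and Col4a4 are high mainly in libraries with a choroid plexus level above 3, while Col4a1 stays between 5.46 and 13.3 FPKM.

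The treatment comparisons asked what irradiation with marrow transplant, with or without microglial depletion and repopulation, left behind in the matrix genes. In 9 comparisons, 3 in each region, limma called 0 members, as did voom on the reads recovered from FPKM. Counts at an unadjusted p under 0.05 are given beside the share of all genes at that level, which they exceeded in some comparisons and not in others. For GFP-BM REPOP against WT CON, where 0.734%, 0.0136% and 0.836% of all genes passed in cortex, hippocampus and thalamus, 8, 7 and 10 of 42 members had an unadjusted p under 0.05 (14.3%, 9.67% and 25.0% of all genes). For GFP-BM CON against WT CON, with 0.320%, 0% and 0% of all genes passing, 9, 4 and 5 members did (16.0%, 23.9% and 20.7%). Between both irradiated groups (GFP-BM REPOP over GFP-BM CON), with 0.0476%, 0.0272% and 0% passing, 1, 11 and 0 members did (4.27%, 11.7% and 0.945%). In hippocampus the 7, 4 and 11 members became 5, 4 and 9 without the libraries low in hippocampal markers, with 0 called by the adjusted test. Without those high in choroid plexus markers, the 7 for GFP-BM REPOP against WT CON became 6, with 0 called. For these fits the share of all genes at the unadjusted level is not reported here. The 3 comparisons of a region share control libraries.

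Among vascular membrane genes, Col4a1 and Col4a2 reached no unadjusted p under 0.05 in cortex or thalamus. In cortex, Col4a1 was at 8.92, 7.53 and 9.45 FPKM in WT CON, at 9.23, 9.13, 9.23 and 8.54 in GFP-BM CON and at 10.2, 9.35, 8.80 and 8.81 in GFP-BM REPOP. The 3 groups overlapped. In hippocampus it was at 9.29, 10.8, 9.03 and 12.2 FPKM in WT CON, at 13.3, 10.9, 11.5 and 11.3 in GFP-BM CON and at 10.7, 5.46, 10.2 and 8.44 in GFP-BM REPOP.

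All 4 GFP-BM REPOP hippocampus libraries lay below the 4 of GFP-BM CON for Col4a1, with a log2 difference of -0.47 (95% interval -0.89 to -0.05; adjusted p = 0.393, limma). Col4a2 gave -0.51 (95% interval -0.93 to -0.08; adjusted p = 0.364, limma). Neither passed. The median over the 42 members in this comparison was -0.40, against -0.01 over all genes, and it was 0.22 against 0.01 without the 4 libraries high in choroid plexus markers, of which 3 are GFP-BM CON. Without them Col4a1 stood at -0.65 and Col4a2 at -0.66 on the log2 scale, but Col18a1 went from -1.21 to -0.40, Col9a3 from -1.84 to -0.17 and Col8a1 from -2.04 to 0.80. With 1 GFP-BM CON library left, that library is assumed to vary like the other groups. Without the libraries low in hippocampal markers, Col4a1 stood at -0.64 and Col4a2 at -0.68 (both with an adjusted p of 0.495, limma), and the members' median was -0.50.

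Among laminins of hippocampus, Lamb1 was at 9.06, 4.84, 8.41 and 10.2 FPKM in WT CON, at 8.78, 8.96, 9.99 and 10.3 in GFP-BM CON and at 3.43, 3.50, 6.23 and 7.81 in GFP-BM REPOP. The 4 values of GFP-BM REPOP were all under those of GFP-BM CON, and the log2 difference was -0.93 ± 0.28 (SE; 95% interval -1.55 to -0.32; adjusted p = 0.270, limma). As a ratio of GFP-BM REPOP to GFP-BM CON it was 0.524 with all libraries, 0.566 without those high in choroid plexus markers (adjusted p = 1.00, limma) and 0.498 without those low in hippocampal markers (adjusted p = 0.495).

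Cortex neuron markers differed between the same groups of hippocampus libraries. The mean log2 level of 10 such markers was 4.00, 3.37, 3.07 and 3.19 in GFP-BM REPOP, against 2.49 to 2.81 in GFP-BM CON, 2.14 to 2.79 in WT CON and 3.98 to 4.15 in cortex itself. Lamb1 was lower in cortex than in hippocampus, and its lowest hippocampus libraries, GFP-BM REPOP replicates 1 and 2, were those with the highest cortex marker level. The part of these markers in the difference was not tested.

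Of all treatment differences of members, those of Col11a1 and Col19a1 between GFP-BM CON and WT CON hippocampus came closest to the threshold. Col11a1 in hippocampus was at 0.225, 0.361, 0.186 and 0.210 FPKM in WT CON, at 2.36, 1.53, 3.25 and 0.746 in GFP-BM CON and at 0.949, 0.334, 0.549 and 1.12 in GFP-BM REPOP. Col19a1 was at 0.139, 0.143, 0.398 and 0.416, at 1.82, 1.28, 3.71 and 0.770, and at 0.807, 0.776, 0.454 and 0.919 in the same order. For both genes no WT CON library reached a GFP-BM CON library. The GFP-BM REPOP libraries overlapped GFP-BM CON for both genes and WT CON for Col11a1.

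The log2 difference between GFP-BM CON and WT CON hippocampus was 2.43 ± 0.44 (SE; 95% interval 1.47 to 3.40) for Col11a1 and 2.30 ± 0.45 (SE; 1.32 to 3.28) for Col19a1, each with an adjusted p of 0.0715 (limma). In thalamus it was 1.43 for Col11a1 (adjusted p = 0.185, limma) and 1.83 for Col19a1 (adjusted p = 0.0937), and for GFP-BM REPOP against WT CON it was 1.25 and 1.66 (adjusted p = 0.163 and 0.0777). The longest transcripts of both genes are poor in GC for members, at 48.0% and 47.3%, and WT CON libraries had the widest GC gap. For Col19a1 that transcript has 5441 bases, whereas the length behind its FPKM values is 10542 bases. The GC and length correction used the longest transcript. Without the libraries high in choroid plexus markers the hippocampus differences were 2.84 and 2.27 (both with an adjusted p of 0.999, limma), and without those low in hippocampal markers 2.58 and 2.12 (both 0.225). With GC content and length corrected, the hippocampus differences were 2.10 and 2.08, and both passed (adjusted p = 0.0467, limma). The share of all genes that passed with this correction is not reported here.

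Other markers differed between these hippocampus groups as well. The mean log2 level of 10 striatum neuron markers was 4.76, 5.49, 5.49 and 2.10 in WT CON and 2.81 to 3.07 in GFP-BM CON. Over the list the median log2 difference was -1.69 for GFP-BM CON against WT CON, with 1 of 10 at an unadjusted p under 0.05, and that of the 10 choroid plexus markers was 1.18. WT CON replicate 4, with the striatum level of 2.10 and a choroid plexus level of 0.06, had 0.210 FPKM of Col11a1 and 0.416 of Col19a1. That is 1 library, and the part of these markers in the difference was not tested.

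In cortex, Col6a1 and Col6a2 came closest to the threshold between GFP-BM CON and WT CON. Col6a1 was at 16.3, 9.47 and 14.1 FPKM in WT CON, at 29.0, 20.8, 25.1 and 19.1 in GFP-BM CON and at 16.1, 16.2, 19.8 and 18.1 in GFP-BM REPOP. All GFP-BM CON libraries lay above all WT CON libraries, with a log2 difference of 0.83 ± 0.18 (SE; 95% interval 0.45 to 1.22; adjusted p = 0.0837, limma), and Col6a2 gave 0.46 ± 0.11 (SE; adjusted p = 0.120). For GFP-BM REPOP against WT CON the values were 0.43 and 0.28 (adjusted p = 0.312 and 0.292, limma), and the libraries overlapped.

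The fibrillar collagens of fibroblasts showed no such order. Col1a1 in cortex was at 1.36, 0.913 and 1.05 FPKM in WT CON, at 1.27, 0.820, 1.21 and 1.49 in GFP-BM CON and at 1.91, 1.28, 0.751 and 1.10 in GFP-BM REPOP. Neither it, Col1a2 nor Col3a1 reached an unadjusted p under 0.05 in any of the 9 comparisons. Other wide differences that did not pass were Col6a4 at -1.25 in cortex and -1.41 in hippocampus for GFP-BM REPOP against WT CON (adjusted p = 0.281 and 0.448, limma), with Col6a4 in hippocampus at -1.69 and -1.70 without either set of libraries, Col8a1 at -0.55 in cortex (adjusted p = 0.170) and Col20a1 at -0.74 in hippocampus (adjusted p = 0.367), which was -0.86 and -0.73 without either set.

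**Figure D4:**
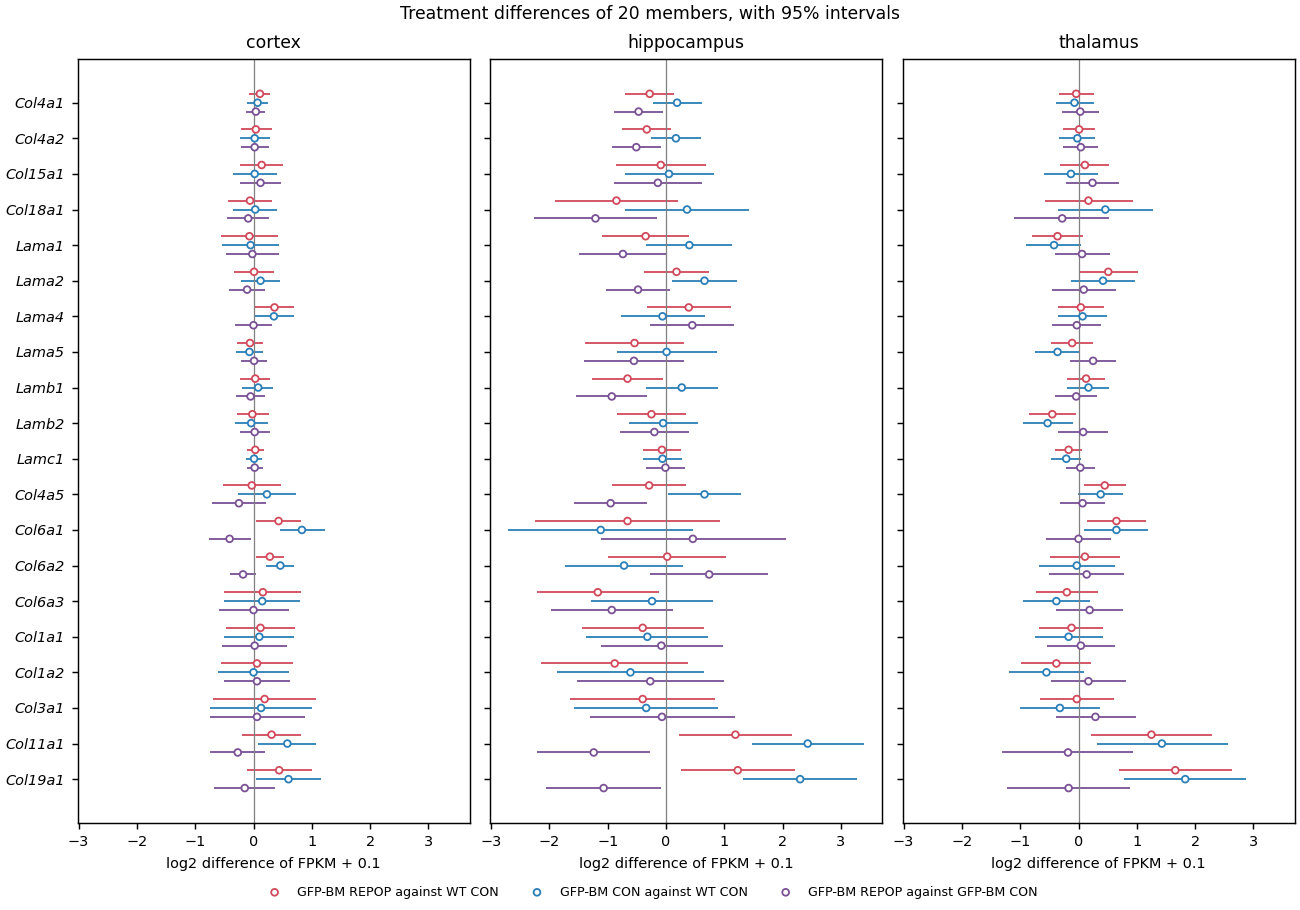
Log2 differences of FPKM + 0.1 with 95% intervals for 20 members in each region, with 1 colour per treatment comparison and open points because none had an adjusted p under 0.05. Most intervals of the vascular chains include 0, while Col11a1 and Col19a1 in hippocampus and thalamus lie above 0 against WT CON.

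**Figure D5:**
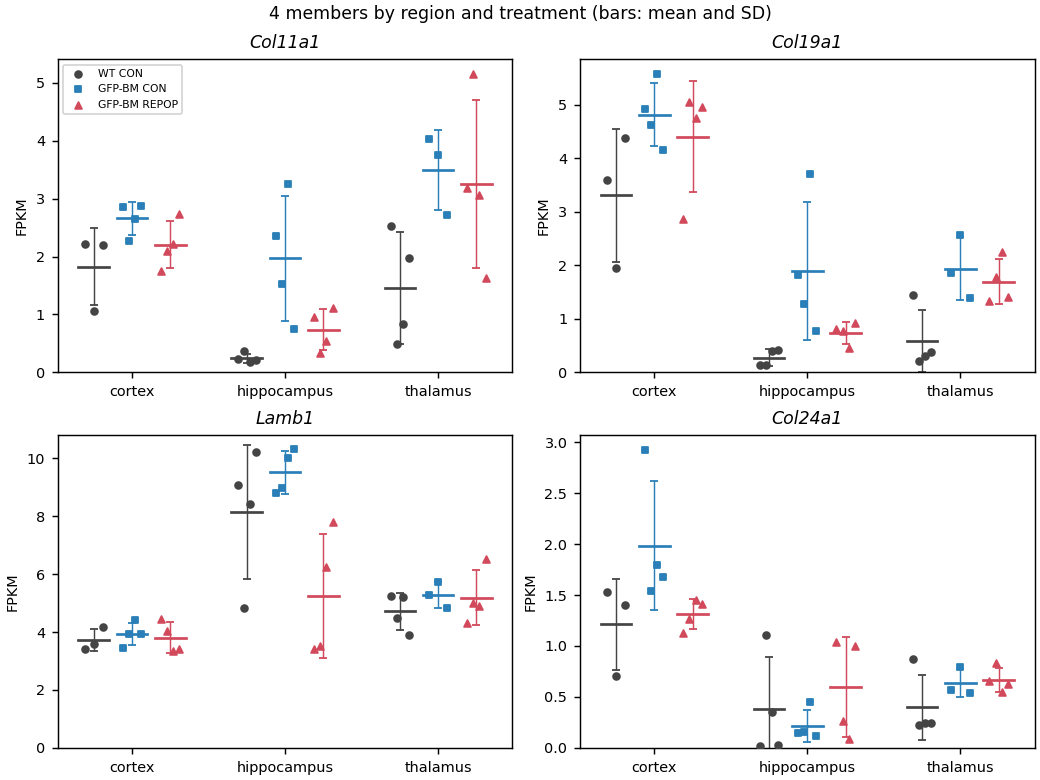
FPKM (linear axes from 0) of Col11a1, Col19a1, Lamb1 and Col24a1 by region, with 1 point per library, coloured by treatment group, and the mean and SD of each group as bars. WT CON libraries of hippocampus are low for Col11a1 and Col19a1, and the 4 GFP-BM REPOP hippocampus libraries of Lamb1, at 3.43 to 7.81 FPKM, lie below those of GFP-BM CON.

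When 1 fit of all 9 groups shared its estimate of spread over regions, some of these differences passed. For GFP-BM CON against WT CON in hippocampus 4 members did (19.3% of all genes), namely Col11a1, Col19a1, Lama2 (0.66, adjusted p = 0.0288, limma) and Col4a5 (0.66, adjusted p = 0.0336). Fitted within hippocampus without the libraries high in choroid plexus markers, Lama2 stood at 0.30 and Col4a5 at 0.19. In thalamus Col19a1 and Col11a1 passed against WT CON in both comparisons (8.89% of all genes for GFP-BM CON and 13.4% for GFP-BM REPOP). In hippocampus, for GFP-BM REPOP over GFP-BM CON, 4 did (4.52%), among them Lamb1 (adjusted p = 0.00899, limma), Col4a5 (0.0101) and Col9a3 (0.0299). For GFP-BM REPOP against WT CON in hippocampus 2 did (2.69%), among them Col20a1 (-0.74, adjusted p = 0.0194, limma). This fit assumes that the libraries of each region vary alike, whereas the SD of Lamb1 over all libraries of a region was 0.57 on the log2 scale in hippocampus and 0.15 in cortex.

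Whether a treatment difference itself differed between regions was tested with a moderated F test over all 3 regions, which called 0 members in each of the 3 treatment comparisons by limma and by voom. At an unadjusted p under 0.05 there were 3 members for GFP-BM REPOP against WT CON (0.00680% of all genes passed the adjusted test and 6.77% the unadjusted), 3 for GFP-BM CON against WT CON (0% and 4.68%) and 6 for GFP-BM REPOP over GFP-BM CON (0.163% and 6.14%). Among the 6 were Col4a1, Col4a2, Col4a5, Col9a3 and Lamb1, with an adjusted p of 0.431 (limma) for Lamb1.

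Genes that work with collagens and laminins were described from 4 lists that hold no members. Over all genes tested, 27.3% were lower in cortex than in hippocampus and 19.8% lower than in thalamus. Of 13 tested basement membrane partners, 8 were lower in cortex than in hippocampus and 0 higher, with a median log2 difference of -0.43, and 8 were lower and 1 higher than in thalamus, with the same median. Hspg2, the perlecan core protein, gave -0.70 and -0.58, Nid1, which links laminin to type IV collagen, gave -0.57 and -0.74, and Sparc, a collagen-binding glycoprotein, gave -0.69 and -2.21 (limma, all adjusted p under 0.05). Npnt, an integrin ligand, was the 1 that stood higher in cortex than in thalamus, by 1.03.

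Of 25 collagen biosynthesis genes, 15 were lower and 2 higher in cortex than in hippocampus (median -0.31), and 12 lower and 3 higher than in thalamus (median -0.21). Serpinh1, the collagen chaperone, gave -0.66 and -0.57, Plod1, a lysyl hydroxylase, -0.59 and -0.82, and Loxl1, a crosslinking oxidase, -1.09 and -0.75. Of 16 receptors, 7 were lower in cortex in each comparison, with 2 and 0 higher, among them the collagen receptor Ddr1 (-0.57 and -0.60) and the laminin-binding integrin chain Itgb4 (-0.54 and -0.98). Of 15 matrix proteases and inhibitors, 9 were lower in cortex in each comparison, with 3 and 2 higher, among them Mmp14 (-0.80 and -0.82). In the 9 treatment comparisons limma called 0 genes of these lists.

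The counts against hippocampus were smaller without the libraries high in choroid plexus markers, where 19.1% of all genes were lower in cortex. Of the basement membrane partners 2 were then lower and 0 higher (median -0.18), of the biosynthesis genes 10 and 2 (-0.15), of the receptors 4 and 2 (0.03), and of the proteases and inhibitors 4 and 4 (-0.21). Sparc (-0.42), Plod1 (-0.51), Loxl1 (-0.66), Ddr1 (-0.36) and Mmp14 (-0.74) kept their calls, while Hspg2 (-0.38), Nid1 (-0.36), Serpinh1 (-0.31) and Itgb4 (-0.20) lost theirs. Without the libraries low in hippocampal markers 6, 14, 7 and 9 genes of the 4 lists were lower in cortex, and of the genes named here Nid1 (-0.30) lost its call.

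The 12 members under the filter were low throughout. Col4a3 and Col4a4, chains of the specialised type IV network, had medians of 0.118 and 0.147 FPKM over 34 libraries, with their highest values, 1.13 and 1.14, both in GFP-BM CON hippocampus replicate 3, a library high in choroid plexus markers. Col22a1 was also highest there, at 1.05. Lamb3, a laminin beta chain, had a median of 0.455 and a highest value of 1.05, and Col7a1 a highest value of 2.02, both in WT CON hippocampus replicate 2. Col4a6, Col6a5, Col6a6, Col9a1, Col14a1, Col17a1 and Col28a1 stayed under 1 FPKM in every library, with highest values from 0.268 for Col6a6 to 0.928 for Col17a1.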

How the data were processed

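The authors aligned paired reads with STAR to mm10, counted them per Entrez gene with featureCounts, and deposited 1 table of FPKM values for 34 libraries. Strandedness is not given in the sources used here, so reads of overlapping genes such as Col4a1 and Col4a2 at their shared starts cannot be told apart. Labels gave the groups. Low values were whole multiples of 1 read, and whole reads were recovered for 100.0% of values (tolerance 0.001 reads), giving depths of 17085018 to 26010509 reads. Nothing says that the animals of a group came from separate cages or batches, and precision is limited by 3 or 4 mice per group.

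Tests were two-sided and used limma 3.58.1 (R 4.3.3) on log2(FPKM + 0.1), which understates changes of low genes. Treatment comparisons were fitted within a region. Region comparisons were fitted over 9 groups with the mouse as a random block, whose correlation was -0.04. P-values were adjusted over 14710 genes by Benjamini-Hochberg at 0.05. Of 15053 genes over the filter, 343 of other biotypes were left out, and 366 of unknown biotype were kept. Fits were tested on simulated data. Replicates were libraries of separate mice, and none agreed within sampling noise.

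Named members were those called under treatment, the 8 highest per region, 17 defining vascular and meningeal genes, the extremes of each treatment comparison (2 each way) and of each region comparison (4 each way). Members outside the rule were named after their values were seen. The members, lists and library sets left out were chosen with earlier results of these data known. The hippocampus libraries left out had a marker level under 2 (hippocampal neurons) or over 3 (choroid plexus). Alternatives were scaling, filter, pseudocount, GC and length correction, voom on recovered reads (TMM library sizes), blocks, 1 fit of all groups, WT CON alone, and leaving out each library. Col10a1 and Col21a1 were not analysed here, and values of some genes that enter the counts are not reported here.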

Additional observations from a re-analysis of the deposited data

Results flagged for a closer look

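In groups of 4 libraries, the gap between the highest or lowest library and its nearest neighbour was set against the range of the group (Dixon's test) for the members always described and the groups of that size, 119 groups in all. Chance flags about 1 in 20 such groups, and 8 were flagged.

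Fibroblast-associated collagens gave 3 of them. Col6a3 was at 1.21 FPKM in GFP-BM REPOP hippocampus replicate 4, against 0.257 to 0.372 in the other 3 libraries, and at 1.34 FPKM in WT CON thalamus replicate 4, against 0.885 to 0.939. The hippocampus library was low in hippocampal markers (1.17) and had a striatum marker level of 6.97. Col3a1 was at 0.580 FPKM in GFP-BM CON cortex replicate 4, against 0.245 to 0.268.

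Vascular membrane chains gave the other 5. Lamb2 was at 14.1 FPKM in WT CON thalamus replicate 2, against 7.68 to 8.31, in the library with the widest GC gap of all (3.65). Lama4 was at 2.53 FPKM in GFP-BM REPOP hippocampus replicate 1, against 1.01 to 1.25, in a library whose hippocampal markers were low (0.89). Lamc1 was at 4.72 FPKM in GFP-BM REPOP hippocampus replicate 2, against 6.87 to 7.09, and at 5.60 FPKM in GFP-BM REPOP cortex replicate 3, against 5.22 to 5.28. Col4a1 was at 8.54 FPKM in GFP-BM CON cortex replicate 4, against 9.13 to 9.23. The last pair of gaps is small beside the level of the gene.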

How the results depend on the processing

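Region differences were the steadier results. Of 46 region differences of named members, 2158 of their recomputed values kept direction and side of the threshold, 87 kept direction but lost the call, and 1 reversed (Col8a2 between cortex and hippocampus, at 0.23 without the libraries high in choroid plexus markers). In WT CON libraries alone, 22 of the 46 lost the call. Members called between cortex and hippocampus, cortex and thalamus, and hippocampus and thalamus numbered 12, 11 and 6 in WT CON libraries alone, where fewer libraries entered, and 14 between cortex and hippocampus without the libraries high in choroid plexus markers. Leaving out 1 library gave 21 to 27, 26 to 29 and 12 to 19. Other settings gave 20 to 30, 21 to 32 and 13 to 20, apart from 21 between hippocampus and thalamus without the libraries high in choroid plexus markers. For WT CON libraries alone, for leaving out 1 library and for most other settings, the share of all genes called is not reported here. These counts therefore cannot show whether the changes are particular to the members.

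For treatment, 1 fit of all 9 groups called 2 members for GFP-BM REPOP against WT CON in hippocampus and 2 in thalamus, 4 and 2 for GFP-BM CON against WT CON, and 4 in hippocampus for GFP-BM REPOP over GFP-BM CON. Over all genes it called 2844 and 1307 for GFP-BM CON against WT CON in hippocampus and thalamus, 395 and 1964 for GFP-BM REPOP against WT CON, and 665 in hippocampus for GFP-BM REPOP over GFP-BM CON, where fits within a region called 0, 0, 2, 123 and 4. GC content and length correction called 2 for GFP-BM CON against WT CON in hippocampus (Col11a1 and Col19a1). Leaving out 1 library gave 0 to 1, 0 and 0 to 4 in cortex, hippocampus and thalamus for GFP-BM REPOP against WT CON, 0 to 2 in each region for GFP-BM CON against WT CON, 0 for GFP-BM REPOP against GFP-BM CON, and 0 to 1 for its difference between regions (1 without WT CON hippocampus replicate 4 or GFP-BM REPOP hippocampus replicate 3). Without WT CON thalamus replicate 1 Col19a1 and Col24a1 passed in both comparisons with WT CON, and Col11a1 and Col5a2 for GFP-BM REPOP. Col16a1 passed in cortex without WT CON replicate 3, Col6a1 and Col6a2 without GFP-BM REPOP cortex replicate 1, and Col11a1 and Col19a1 in hippocampus without WT CON replicate 3 or GFP-BM CON replicate 4. For the GC correction and the fits that left out 1 library, the share of all genes called is not reported here. The cause of these changes was not tested.

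Replicate numbers are shared between treatment groups, but the sample names give different mice. Same-numbered libraries deviated from their group means with correlations of -0.43 to 0.49. Libraries of the same mouse in other regions gave -0.58 to 0.44, so such correlations could not show pairing here. With the replicate block 0 members passed in each of the 9 treatment comparisons. With 3 or 4 mice per group, differences as large as that of Col4a1 in hippocampus (95% interval -0.89 to -0.05 on the log2 scale) did not pass.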
